A study of Homo sapiens with 6 samples.

Results

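β-catenin (CTNNB1) and 8 genes of the cytoplasmic complex that destroys it were followed in SW480 cells after depletion of integrin β4. The 9 genes were taken by name from the deposited expression table: CTNNB1, the scaffolds APC, AXIN1 and AMER1, the kinases GSK3A, GSK3B and CSNK1A1, and the ubiquitin ligase receptors BTRC and FBXW11. All 9 were among the 58735 genes of the table, and all 9 were among the 12871 genes with a mean of at least 1 FPKM (fragments divided by gene length in kilobases and by library size) that were tested. SW480 is an established human colorectal cancer line. All 6 libraries carry the genotype label WT. The line is known to carry truncated APC, so both groups share a destruction complex with a shortened scaffold. Of the 6 libraries, 3 came from cells given a negative control siRNA and 3 from cells given an siRNA against ITGB4. The series calls them biological replicates without saying that they were separate cultures, so p-values measure the spread between these libraries. The siRNA sequence, its dose and the time after transfection are not given in the sources used here. The study's title ties ITGB4 to ezrin (EZR) and to Wnt/β-catenin signalling. The comparison asks whether the transcripts of β-catenin and of its destruction machinery differed when ITGB4 was depleted.

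In a cell without a Wnt signal, axin and APC hold β-catenin close to casein kinase 1α and glycogen synthase kinase 3, which phosphorylate its amino terminus. The phosphorylated stretch is read by β-TrCP, the F-box protein encoded by BTRC or its paralogue FBXW11, and β-catenin is ubiquitinated and degraded by the proteasome. Control of β-catenin by this route is post-translational, so a transcript level says nothing directly about the amount of β-catenin protein. In colorectal tumours truncated APC is the commonest way in which the complex is disabled.

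The stretch of β-catenin that all the enzymes of the complex act on is shown as its coding sequence, beside that of plakoglobin (JUP), the β-catenin paralogue of cell junctions. Both are from GENCODE 29 transcripts on GRCh38, 5′ to 3′ on the coding strand. The capitals mark the codons of the 4 phosphorylatable residues, which in CTNNB1 are codons 33, 37, 41 and 45. Codon 45 is the site of casein kinase 1α, codons 41, 37 and 33 are those of glycogen synthase kinase 3, and the residues around codons 33 and 37 form the site that β-TrCP recognises. The CTNNB1 stretch covers codons 32 to 46 in exon 3 (chr3:41224606-41224650, plus strand), and the JUP stretch covers codons 23 to 37 in exon 2 (chr17:41771744-41771788, minus strand).
CTNNB1: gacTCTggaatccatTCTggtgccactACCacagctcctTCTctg
JUP: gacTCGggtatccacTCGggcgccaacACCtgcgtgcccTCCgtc
The 2 stretches shared 29 of 45 bases and 4 of 15 codons but coded for the same residue at 11 of 15 positions, the 4 marked ones included.

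The libraries held 13715266 to 15496274 reads as recovered from the deposited values. Keratins KRT8 and KRT18, EPCAM and CDX2 were high, at means of 486.0, 567.5, 97.1 and 21.3 FPKM, while the differentiation markers KRT20 and VIL1 were at 0.0237 and 0.706 FPKM. None of the 7 fibroblast, 5 endothelial and 6 leukocyte markers reached a mean of 1 FPKM, and the summed level of each list overlapped between the groups. ITGB4, the target, was at 74.3, 63.8 and 69.8 FPKM with control siRNA and at 41.1, 38.1 and 37.9 FPKM with its own siRNA, a difference of -43.7% (log2 fold change -0.81, limma adjusted p = 0.0148). Limma-voom on the recovered reads of all 6 libraries gave ITGB4 an adjusted p of 1.31e-05. The limma adjusted p rose above 0.05 without control siRNA replicate 3 (0.0996) or ITGB4 siRNA replicate 1, 2 or 3 (0.0709, 0.137 and 0.0968), and with no filter on low values (0.0618). In such bulk RNA, fewer cells and less RNA per cell cannot be told apart. EZR differed by -11.6% and did not pass (limma adjusted p = 0.451). Limma called 6 of the 12871 genes changed at an adjusted p under 0.05, which is 0.0466% of them.

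None of the 9 genes of β-catenin and its destruction complex passed the test after ITGB4 depletion. Limma called 0 of 9 at an adjusted p under 0.05, against 0.0466% of all genes tested, and 0 of 9 at an unadjusted p under 0.05, against 5.83%. Limma-voom on the recovered reads also called 0 of 9, against 0.202% of all genes tested. The 9 log2 fold changes, ITGB4 siRNA minus control on the scale of log2(FPKM + 1), ran from -0.10 to 0.07 with a median of -0.013. Over all genes tested the median was -0.0034 and the quartiles were -0.062 and 0.055. AXIN1 lay above that middle range, BTRC and FBXW11 lay below it, and the others lay inside it. 6 of 9 lay below 0, where 51.5% of all genes tested did.

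**Figure D1:**
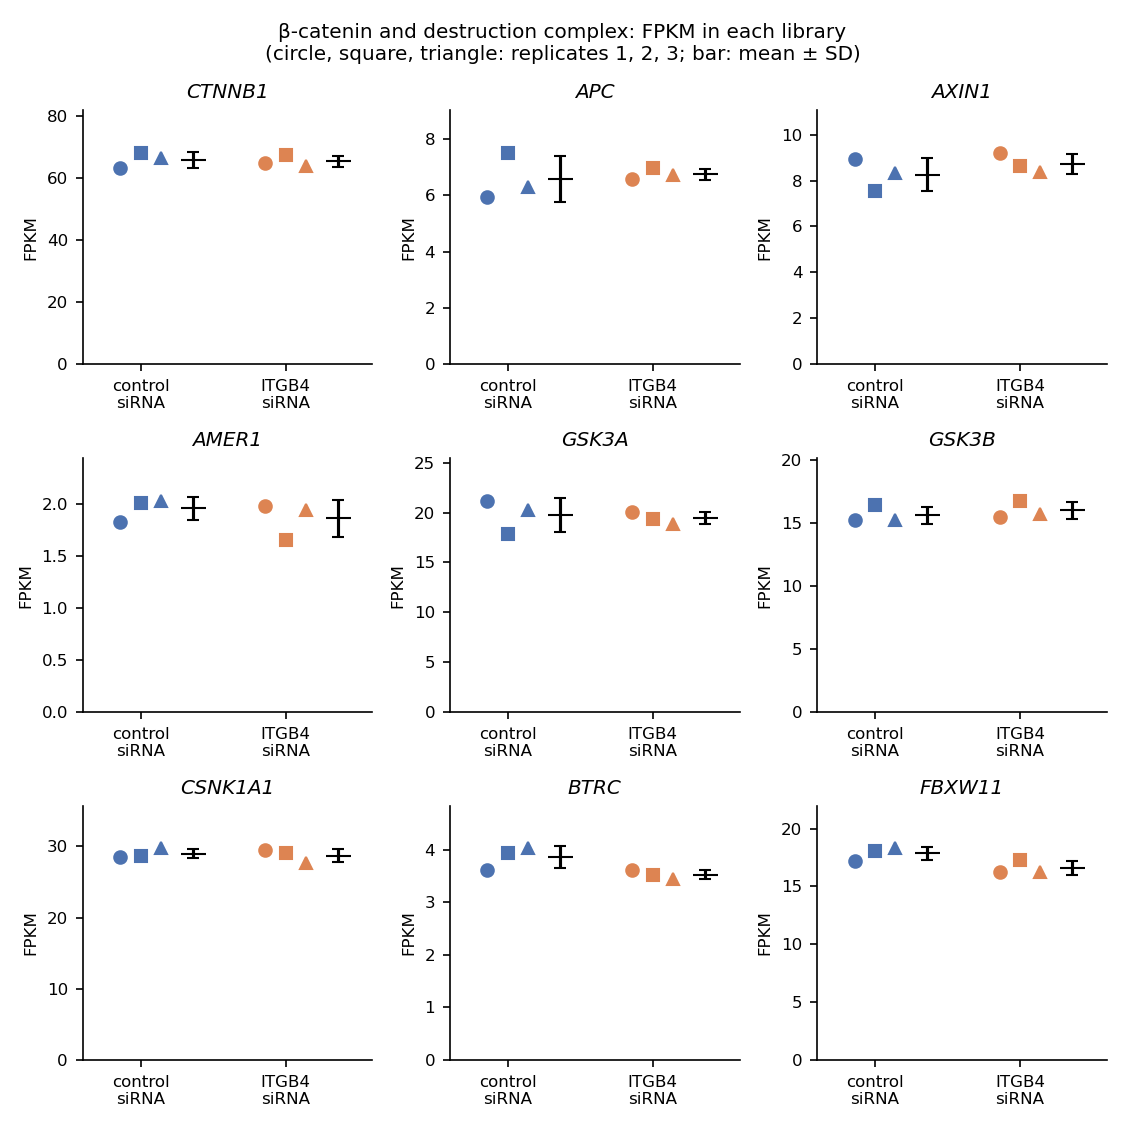
FPKM (vertical axes, each from 0) of the 9 genes in the 3 control siRNA libraries (blue) and the 3 ITGB4 siRNA libraries (orange), with replicates 1, 2 and 3 as circle, square and triangle and black bars for mean ± SD. The groups overlap in 8 of 9 genes, and in BTRC the siRNA libraries lie just below the lowest control.

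CTNNB1 (ENSG00000168036; GRCh38 chromosome 3, 41194741 to 41260096, plus strand) had the highest level of the 9. It was at 63.1, 68.1 and 66.2 FPKM in control siRNA replicates 1, 2 and 3 and at 64.8, 67.3 and 63.9 FPKM in ITGB4 siRNA replicates 1, 2 and 3. The lowest and the highest value of the gene were both in control libraries, and the siRNA libraries lay between them. With 10710 to 12257 reads per library it was also the most precisely counted of the 9. ITGB4 siRNA minus control siRNA came to -0.0095 in log2 units (SE 0.0453, limma adjusted p = 0.998). The 95% interval of -0.12 to 0.10 corresponds to -7.79% to 7.03%.

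The scaffolds are large proteins that bring β-catenin to the kinases. APC (ENSG00000134982; chromosome 5, 112707498 to 112846239, plus strand) was at 5.95, 7.51 and 6.30 FPKM with control siRNA and at 6.56, 6.95 and 6.71 FPKM with ITGB4 siRNA. The siRNA libraries fell within the control range, which was set by control replicates 1 and 2. The difference was 0.034 in log2 units (SE 0.0829; 95% interval -0.16 to 0.23), and APC did not pass by limma (adjusted p = 0.998). The truncation of APC in this line does not show in a gene-level value and was not analysed here.

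AXIN1 (ENSG00000103126; chromosome 16, 287440 to 352673, minus strand), the scaffold that binds β-catenin, APC and the kinases, was at 8.94, 7.53 and 8.31 FPKM with control siRNA and at 9.22, 8.62 and 8.36 FPKM with ITGB4 siRNA. Control replicate 2 was the low library, and the groups overlapped. The estimate for AXIN1 was 0.07 in log2 units (SE 0.0713; 95% interval -0.10 to 0.24) and dropped to 0.02 without control siRNA replicate 2. It did not pass by limma (adjusted p = 0.998). AMER1 (ENSG00000184675; chromosome X, 64185117 to 64205744, minus strand), which recruits APC and axin to the plasma membrane, was the lowest of the 9, at 1.83, 2.01 and 2.04 FPKM with control siRNA and 1.98, 1.66 and 1.95 FPKM with ITGB4 siRNA. ITGB4 siRNA replicate 2 stood below the other libraries, on 214 reads. AMER1 differed by -0.05 in log2 units (SE 0.0857; 95% interval -0.25 to 0.15; limma adjusted p = 0.998), and by 0.0027 without that library. The pseudocount of 1 understates changes of a gene at this level.

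The kinases showed equally small differences. CSNK1A1 (ENSG00000113712; chromosome 5, 149492197 to 149551552, minus strand), casein kinase 1α, which makes the priming phosphorylation, was at 28.55, 28.57 and 29.7 FPKM with control siRNA and at 29.4, 28.99 and 27.6 FPKM with ITGB4 siRNA. Its log2 fold change of -0.013 (95% interval -0.12 to 0.09) had an interval about as narrow as that of CTNNB1. CSNK1A1 shares 2886 of its 7714 exonic bases with the noncoding gene AC021078.1 (2.57 FPKM) on the same strand, so reads from the shared bases cannot be assigned to 1 of them. GSK3A (ENSG00000105723; chromosome 19, 42230186 to 42242625, minus strand) was at 21.2, 17.8 and 20.2 FPKM with control siRNA and at 20.1, 19.4 and 18.9 FPKM with ITGB4 siRNA. The spread of this gene lay among the controls, with replicate 2 lowest, and the log2 fold change was -0.02 (95% interval -0.18 to 0.14). GSK3B (ENSG00000082701; chromosome 3, 119821323 to 120094417, minus strand), the second of the interchangeable glycogen synthase kinases, was at 15.2, 16.4 and 15.2 FPKM with control siRNA and at 15.5, 16.8 and 15.7 FPKM with ITGB4 siRNA. Replicate 2 was the highest in both groups, and the log2 fold change was 0.034 (95% interval -0.09 to 0.16). Limma gave each of the 3 kinases an adjusted p of 0.998.

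The receptors that hand phosphorylated β-catenin to the ubiquitin ligase had the most negative values of the 9, and neither passed the test. BTRC (ENSG00000166167; chromosome 10, 101354033 to 101557321, plus strand) was at 3.618, 3.95 and 4.03 FPKM with control siRNA and at 3.613, 3.52 and 3.45 FPKM with ITGB4 siRNA. All 3 siRNA libraries were below all 3 controls, but replicate 1 of the groups was almost equal. BTRC was the 1 gene of 9 whose groups did not overlap, where 11.1% of all genes tested had groups apart in either direction and 5.36% had them apart with the siRNA group lower. BTRC differed by -8.72% between the group means, or -0.10 on the log2(FPKM + 1) scale (SE 0.0624; 95% interval -0.25 to 0.05). It did not pass by limma (adjusted p = 0.977), and the exact two-sided permutation p was 0.1, the smallest that 3 against 3 libraries allow.

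FBXW11 (ENSG00000072803; chromosome 5, 171861549 to 172006873, minus strand) was at 17.22, 18.1 and 18.3 FPKM with control siRNA and at 16.2, 17.25 and 16.3 FPKM with ITGB4 siRNA. ITGB4 siRNA replicate 2 lay just above control replicate 1, and the other siRNA libraries lay below every control. FBXW11 differed by -7.14%, or -0.10 on the log2(FPKM + 1) scale (SE 0.0488; 95% interval -0.22 to 0.015). Its limma adjusted p was 0.926, and its exact two-sided permutation p was 0.2. FBXW11 ranked 1076 and BTRC 1900 among the 12871 genes by limma p, ahead of the other 7 genes of the complex. Both intervals include 0, and their lower bounds correspond to -13.96% for FBXW11 and -15.96% for BTRC on the log2(FPKM + 1) scale. These are percentages of FPKM + 1, which understate a change in FPKM at the level of BTRC. With a pseudocount of 0.1 BTRC differed by -0.127 in log2 units and did not pass (limma adjusted p = 0.972).

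**Figure D2:**
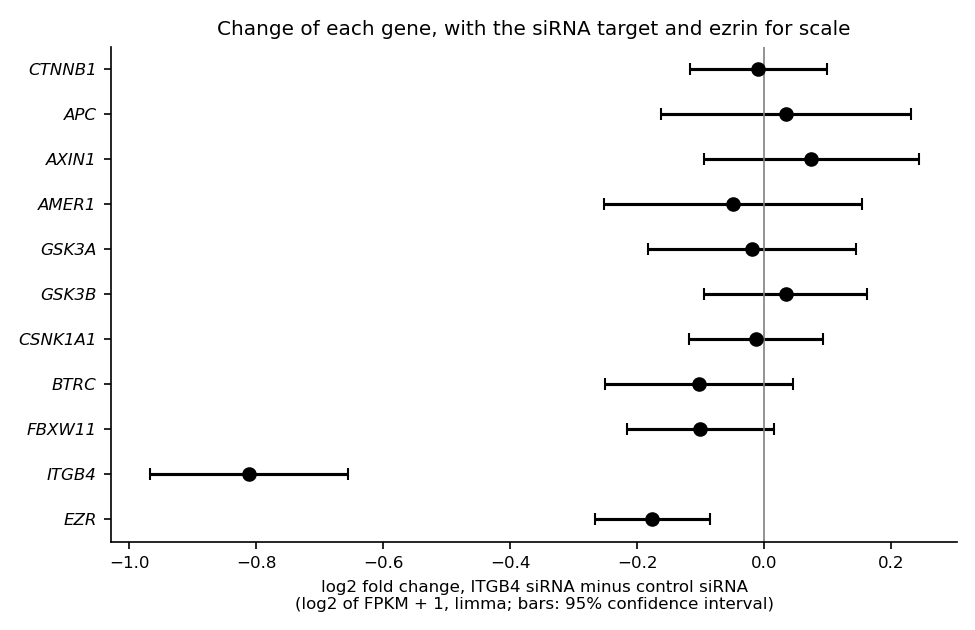
Log2 fold change (horizontal axis, ITGB4 siRNA minus control siRNA on log2(FPKM + 1)) of the 9 genes and, for scale, of ITGB4 and EZR, with 95% confidence intervals from limma. The intervals of all 9 complex genes include 0, and ITGB4 lies at -0.81.

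Leaving out each library in turn kept BTRC and FBXW11 below 0, from -0.14 to -0.08 and from -0.13 to -0.08, and kept AXIN1 (0.02 to 0.13) and GSK3B (0.0010 to 0.07) above it. The sign turned without control siRNA replicate 1 for APC and GSK3A, without control replicate 2 for CTNNB1 and without control replicate 3 for CSNK1A1. It turned without ITGB4 siRNA replicate 2 for AMER1, and without ITGB4 siRNA replicate 3 for CTNNB1, GSK3A and CSNK1A1. FBXW11 reached an unadjusted limma p of 0.0359 without control siRNA replicate 1 (limma adjusted p = 0.465) and of 0.0465 with no filter on low values (limma adjusted p = 0.898).

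**Figure D3:**
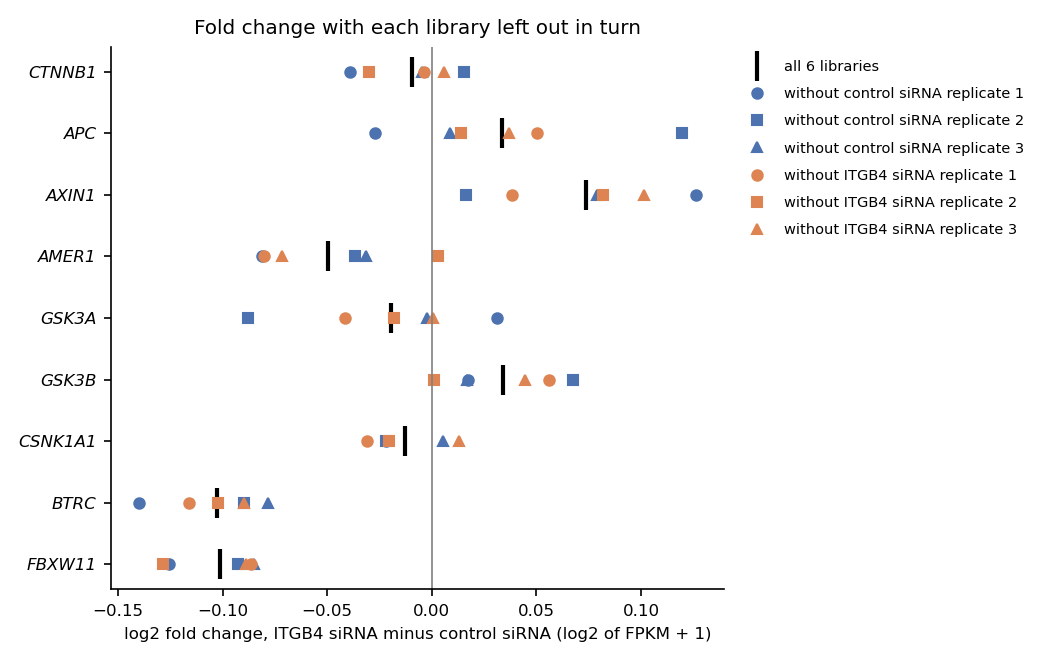
Log2 fold change (horizontal axis, log2(FPKM + 1)) of each of the 9 genes with all 6 libraries (black bar) and with 1 library left out (blue for a control, orange for an ITGB4 siRNA library; circle, square and triangle for replicates 1, 2 and 3). BTRC and FBXW11 stay left of 0 in each fit, while CTNNB1 runs from -0.039 to 0.015.

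The genes of the complex differed far more from each other than between the groups. By FPKM, which divides by gene length, the order of the means over 6 libraries was CTNNB1 (65.6), CSNK1A1 (28.8), GSK3A (19.6), FBXW11 (17.2), GSK3B (15.8), AXIN1 (8.497), APC (6.66), BTRC (3.70) and AMER1 (1.91 FPKM). The neighbours GSK3A and FBXW11 overlapped in their ranges over the libraries, as did FBXW11 and GSK3B, and every other neighbouring pair was apart. These levels depend on the length used. The deposited lengths equal the union of all annotated exons of each of the 9 genes in GENCODE 29, 11927 bases for CTNNB1. Its principal transcript in APPRIS, an annotation that picks a main isoform per gene, has 4735 bases. With principal transcript lengths, a choice made after seeing the data, CSNK1A1 (202.4) ranked above CTNNB1 (165.2 FPKM) and GSK3B (78.8) above GSK3A (37.0 FPKM). The CSNK1A1 model used there has 1098 bases, of which 1095 are coding, so it leaves out nearly all untranslated sequence. The GSK3B model has 1636 bases (1299 coding) against 8156 deposited, a larger cut than for GSK3A (2188 against 4126). APC, BTRC and AMER1 were the 3 lowest, in that order, by both lengths.

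CTNNB1 was set against each complex gene within each library, since a ratio within a library does not depend on the library's scaling. The CTNNB1 to FBXW11 ratio of FPKM was 3.66, 3.77 and 3.62 with control siRNA and 4.00, 3.90 and 3.93 with ITGB4 siRNA. The CTNNB1 to BTRC ratio was 17.4, 17.2 and 16.4 with control siRNA and 17.9, 19.1 and 18.6 with ITGB4 siRNA. Both ratios were higher in all 3 siRNA libraries than in any control, and the other 6 ratios overlapped. CTNNB1 itself differed by only -0.689%. Both ratios therefore largely restate the differences of BTRC (-8.72%) and FBXW11 (-7.14%) and are no independent evidence. Of 12668 genes, 10.5% had a ratio to CTNNB1 that did not overlap between the groups in either direction. The ratios of CTNNB1 to its scaffolds were 9.06 to 10.6 for APC, 7.03 to 9.04 for AXIN1 and 32.5 to 40.5 for AMER1 over the 6 libraries. Those to the kinases were 2.97 to 3.82 for GSK3A, 4.01 to 4.35 for GSK3B and 2.20 to 2.38 for CSNK1A1.

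**Figure D4:**
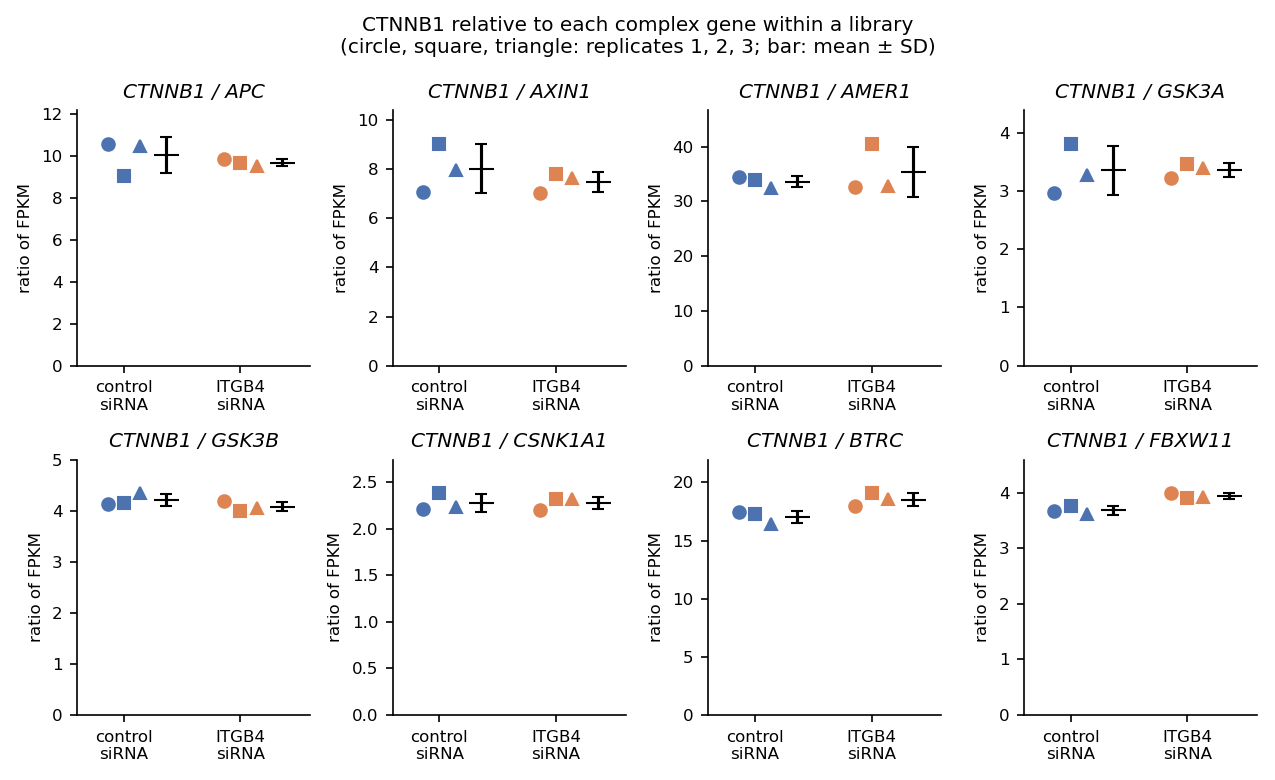
FPKM of CTNNB1 divided by that of each complex gene (vertical axes, from 0) in the control siRNA (blue) and ITGB4 siRNA libraries (orange), with replicates 1, 2 and 3 as circle, square and triangle and black bars for mean ± SD. Of the 8 ratios shown, those to BTRC and FBXW11 are apart between the groups.

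Several parts of the complex are encoded by gene families, so the share of each member within its family was compared, as a percentage of summed FPKM. FBXW11 made up 82.2% ± 0.369 (SD, n = 3) of the β-TrCP transcripts with control siRNA and 82.4% ± 0.633 (SD, n = 3) with ITGB4 siRNA. The difference in that share was 0.231 percentage points (exact two-sided permutation p = 0.7). GSK3B made up 44.2% ± 3.24 and 45.1% ± 1.45 of the GSK3 pair (SD, n = 3 each). CTNNB1 made up 67.2% ± 2.37 and 66.1% ± 1.47 of its sum with JUP, and CSNK1A1 made up 52.4% ± 2.38 and 53.1% ± 1.35 of its sum with CSNK1D and CSNK1E (SD, n = 3 each). In these 4 families the groups overlapped, and the sign of each difference turned with 1 library left out. The difference ran from -0.064 to 0.565 percentage points for FBXW11, from -0.258 to 2.80 for GSK3B, from -2.27 to 0.1004 for CTNNB1 and from -0.558 to 1.79 for CSNK1A1. It turned without ITGB4 siRNA replicate 2 for FBXW11 and CSNK1A1, without control replicate 1 for GSK3B and CSNK1A1, and without control replicate 2 for CTNNB1. The shares themselves depend on the length used. With principal transcript lengths the control means were 67.6% for GSK3B, 74.1% for CSNK1A1, 78.5% for CTNNB1 and 84.6% for FBXW11, so GSK3B was then the larger of its pair. That order rests on a GSK3B model of 1636 bases against 8156 deposited, where GSK3A has 2188 against 4126.

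The axin pair was the 1 family of 5 whose shares were apart. How often gene pairs in general have shares apart was not computed. AXIN1 was 6.37%, 5.84% and 6.31% of the sum of AXIN1 and AXIN2 with control siRNA and 7.06%, 6.76% and 6.49% with ITGB4 siRNA. AXIN2, a β-catenin target that encodes a second axin and so feeds back on the pathway, supplied the rest. With principal transcript lengths the AXIN1 share was 9.92% with control siRNA and 10.8% with ITGB4 siRNA. AXIN2 was at 131.3, 121.6 and 123.4 FPKM with control siRNA and at 121.4, 119.0 and 120.5 FPKM with ITGB4 siRNA. All 3 siRNA libraries lay below the controls, but the highest of them (121.4) almost reached the lowest control (121.6 FPKM). Of all genes tested, 5.36% had groups apart with the siRNA group lower. The exact two-sided permutation test of the AXIN1 share gave p = 0.1, the smallest possible, and 0.5 after Benjamini-Hochberg adjustment over the 5 families. Neither gene passed alone (limma adjusted p = 0.998 for both).

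The spread between replicates was larger than counting error for 8 of the 9 genes. Within groups the coefficient of variation was 9.03% for APC against 2.84% from counting, 6.56% for GSK3A against 2.88%, and 3.29% for CTNNB1 against 0.925%. For BTRC it was 4.32% against 5.24%, so the reads, 331 to 406 per library, limit what can be seen of that gene. APC and GSK3A moved in opposite directions (Pearson r = -0.95 over 6 libraries, as a description). Theirs was the strongest correlation of any pair of the 9 genes. Control siRNA replicate 2 had the highest APC and the lowest GSK3A and AXIN1 of all libraries, while replicate 1 had the lowest APC and the highest GSK3A. Over the 12871 genes, deviations from the gene's mean correlated with gene length at a Spearman rho of 0.137 in control siRNA replicate 2 and -0.154 in control siRNA replicate 1, and at -0.0567 to 0.051 in the other libraries. The deposited lengths of APC and GSK3A are 12440 and 4126 bases, the longest and the shortest of the 9. The genes between them did not all follow length. In control siRNA replicate 2, CTNNB1 (11927 bases) lay 0.054 log2 units above its mean. The shorter FBXW11 (5577 bases) and BTRC (6613 bases) also lay above theirs, by 0.067 and 0.077. AXIN1 (7487 bases) deviated by -0.152 there. The part of this length relation in the spread of APC and GSK3A was not tested.

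Of 6816 other protein-coding genes with a mean of at least 5 FPKM, those most like CTNNB1 over the 6 libraries by Pearson correlation of log2(FPKM + 1) were EXOSC1 (r = 0.98), a subunit of the RNA exosome, WNK1 (0.98), a kinase of ion transport, and CKAP5 (0.98), a microtubule-binding protein. With 6 libraries 165 genes had r of at least 0.9, so these names describe the libraries' shared spread only.

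Of 11 paralogues of the complex genes, 4 did not reach a mean of 1 FPKM. APC2 averaged 0.778 and 0.715 FPKM in the control and ITGB4 siRNA groups, under the filter on low values, and AMER2, AMER3 and CSNK1A1L were at 0 in every library. Limma called 0 of the 7 tested paralogues (0 at an unadjusted p under 0.05; limma-voom 0). CSNK1G3, a membrane-bound casein kinase 1γ, was at 7.49, 8.53 and 8.39 FPKM with control siRNA and at 8.66, 9.32 and 8.93 FPKM with ITGB4 siRNA, higher in all 3 siRNA libraries (log2 fold change 0.13, limma adjusted p = 0.931). Of the 7, 1 was apart and higher and 1, AXIN2, apart and lower, where 11.1% of all genes tested were apart in either direction. CSNK1G1 had a log2 fold change of 0.11, CSNK1E -0.11, JUP 0.06, CSNK1D -0.017 and CSNK1G2 -0.0022, which was 0.0031 by limma-voom, and in these 5 the groups overlapped. Without control siRNA replicate 1 CSNK1E differed by -0.026, and without control siRNA replicate 2 JUP differed by 0.0089.

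Around the F-box receptors, the conjugating enzyme gene UBE2D2 was the 1 gene of these lists to pass either test, and it did so by limma-voom alone. BTRC and FBXW11 work in an SCF ligase built on CUL1, SKP1 and RBX1, which takes ubiquitin from conjugating enzymes such as the UBE2D family. Of 14 genes of the ligase and of neddylation, the modification that activates CUL1, limma called 0 and limma-voom called 1, UBE2D2, where limma-voom called 0.202% of all genes tested. Their median log2 fold change was -0.0090, with 8 below 0 and 6 above, and 2 were lower and 0 higher at an unadjusted limma p under 0.05, which 5.83% of all genes tested had.

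UBE2D2 was at 49.4, 43.9 and 44.5 FPKM with control siRNA and at 37.01, 35.2 and 36.3 FPKM with ITGB4 siRNA. The lowest control stood well above the highest siRNA library, and the difference was -21.3%. On the log2(FPKM + 1) scale it differed by -0.34 (SE 0.0562; 95% interval -0.47 to -0.20), with an adjusted p of 0.208 by limma and 0.0465 by limma-voom. Leaving out 1 library gave -0.37 to -0.28, with limma adjusted p from 0.167 to 0.790, and the other limma settings gave 0.123 to 0.363. Its close paralogues UBE2D3 (log2 fold change -0.10) and UBE2D1 (0.16) had overlapping groups, and how reads matching more than 1 of these similar genes were counted is not given in the sources used here.

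RBX1, the RING subunit that binds the conjugating enzyme, was at 13.4, 12.2 and 13.6 FPKM with control siRNA and at 11.3, 12.1 and 11.4 FPKM with ITGB4 siRNA. The groups did not overlap, and RBX1 differed by -0.16 in log2 units (SE 0.0586), with an adjusted p of 0.806 by limma and 0.868 by limma-voom. Of the 14 genes, 2 were apart, both lower, where 5.36% of all genes tested were apart and lower and 11.1% apart in either direction. CUL1, the backbone, was at 59.7 ± 2.82 and 62.2 ± 0.950 FPKM (SD, n = 3 each), and SKP1, the adaptor to the F-box, at 15.5 ± 1.34 and 15.4 ± 0.815 FPKM (SD, n = 3 each). Their groups overlapped. The 4 lower genes BTRC, FBXW11, RBX1 and UBE2D2 were singled out here after their values were seen.

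**Figure D5:**
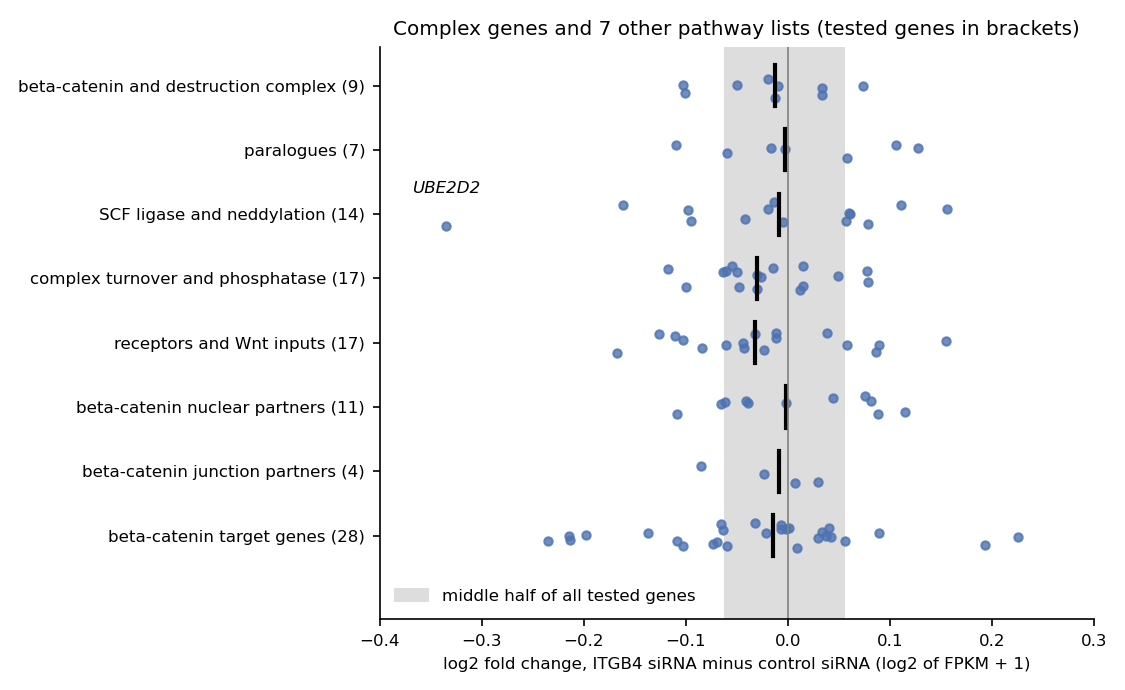
Log2 fold change (horizontal axis, ITGB4 siRNA minus control siRNA on log2(FPKM + 1)) of each tested gene (blue points, spread vertically at random within a list) in the complex and in 7 other pathway lists, with black bars for list medians and grey for the middle 50% of all tested genes. The medians lie between -0.032 and -0.0020, and UBE2D2 lies farthest from 0 at -0.34.

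The regulators of complex turnover include tankyrases and RNF146, which destroy axin, and protein phosphatase 2A, which reverses the phosphorylation. Limma called 0 of 17, with a median of -0.03 and 11 below 0 (0 at an unadjusted p under 0.05; limma-voom 0). USP34, a deubiquitinase that acts on axin, averaged 11.3 FPKM (SD 0.944, n = 3) with control siRNA and 10.3 FPKM (SD 0.344, n = 3) with ITGB4 siRNA, a log2 difference of -0.12 that was -0.069 without control siRNA replicate 2. The phosphatase subunits PPP2R5A and PPP2R5D (regulatory) and PPP2R1A (scaffold) differed by 0.08, 0.08 and 0.05 in log2 units, and all 4 genes overlapped between the groups. Of 17 tested receptors and inputs of the Wnt signal that inhibits the complex, limma called 0, with a median of -0.03 and 12 below 0 (1 had an unadjusted p under 0.05, in the lower direction, a share near the 5.83% of all genes tested; limma-voom called 0). That one was ZNRF3, a ligase that removes Wnt receptors, at 19.8, 20.1 and 20.4 FPKM with control siRNA and at 19.2, 18.4 and 18.4 FPKM with ITGB4 siRNA. Its groups were apart (log2 difference -0.10; limma adjusted p = 0.852), as were those of the receptor FZD3 (-0.17, or -0.088 without control siRNA replicate 2), and 11.1% of all genes tested had groups apart. The receptor FZD4 (-0.13) and the ligase RNF43 (0.09, or 0.028 without control siRNA replicate 3), which acts like ZNRF3, overlapped. LRP6, the coreceptor that draws axin to the membrane, averaged 6.65 FPKM (SD 0.477, n = 3) with control siRNA and 6.33 FPKM (SD 0.350, n = 3) with ITGB4 siRNA.

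β-catenin that escapes the complex binds TCF factors in the nucleus, and another pool holds cadherins to the cytoskeleton. Limma called 0 of 11 tested nuclear partners (median -0.0020; 0 at an unadjusted p under 0.05; limma-voom 0). TCF7L2, the main TCF factor of the colon, averaged 3.43 FPKM over the 6 libraries of this line, below TCF7 (20.6) and LEF1 (18.7 FPKM). TCF7 (log2 fold change -0.0020) and LEF1 (-0.065) overlapped between the groups. TCF7L2 was at 3.37, 3.63 and 3.79 FPKM with control siRNA and at 3.12, 3.29 and 3.36 FPKM with ITGB4 siRNA. BCL9, a coactivator that docks on β-catenin, was at 4.58 ± 0.197 and 5.05 ± 0.188 FPKM (SD, n = 3 each). The groups were apart in TCF7L2 and BCL9, TCF7L2 lower (log2 fold change -0.11) and BCL9 higher (0.12), and neither passed (limma adjusted p = 0.976 and 0.938). Of the 11 partners, 1 was apart and lower and 1 apart and higher, where 11.1% of all genes tested were apart in either direction. The coactivator PYGO2 (0.08) and the corepressor TLE3 (-0.06) overlapped between the groups. Of 4 tested junction partners limma called 0 (limma-voom 0; unadjusted p under 0.05 in 0), and CDH1, E-cadherin, averaged 6.23 FPKM (SD 0.349, n = 3) and 6.26 FPKM (SD 0.147, n = 3). CDH3 (-0.08) and the catenins CTNNA1 (-0.024) and CTNND1 (0.030) overlapped as well.

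Of 28 tested genes listed as β-catenin targets, limma called 0, with a median of -0.01, 17 below 0 and 11 above. Their transcripts are no direct measure of the β-catenin that the complex leaves behind. With an unadjusted p under 0.05, 5 were lower and 1 was higher, where 5.83% of all genes tested had such a p in either direction. Limma-voom called 0 after adjustment. The groups were apart in 7 of 28, 6 of them lower, where 11.1% of all genes tested were apart in either direction and 5.36% were apart and lower. AXIN2, RNF43, ZNRF3, TCF7 and LEF1 also belong to lists above. Among them AXIN2 and ZNRF3, both apart and lower, were already counted there, and ZNRF3 is also among the 5 lower by unadjusted p. The higher one was DKK4, a secreted Wnt inhibitor, at 11.3, 10.2 and 11.4 FPKM with control siRNA and at 12.9, 11.8 and 13.4 FPKM with ITGB4 siRNA, on 135 to 186 reads (log2 fold change 0.19, limma adjusted p = 0.794). Of the lower ones, ID2 (log2 difference -0.24), CCND1 (-0.14) and PLAUR (-0.21) had limma adjusted p of 0.368, 0.687 and 0.794. MYC, which overlapped, differed by 0.04, with 0.012 to 0.09 when 1 library was left out. This list was written with earlier results of these libraries known, including those of several of its genes, so its counts are a description and no independent evidence of a direction.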

How the data were processed

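RNA was captured on poly-T beads, per the labels' protocols. The authors deposited FPKM per gene and library with gene lengths, per the file headers. The submitters' processing notes name GRCh38, DESeq2 and edgeR without a role. Aligner and counting tool are not given in the sources used here. Values times length were whole multiples of 1 read (100% within 0.01), so reads were recovered. Genes with a mean of at least 1 FPKM (12871) were fitted as log2(FPKM + 1) with limma 3.58.1 (trend, R 4.3.3), all 6 libraries, no replicate term, two-sided, Benjamini-Hochberg over all genes tested. The fit was tested on simulated data with planted changes far larger than those seen in the complex genes. Differences as small as theirs were not simulated. Limma-voom used the recovered reads. Family shares had exact permutation tests (scipy 1.17.1). Alternatives were other filters, a pseudocount of 0.1, TPM, median-of-ratios rescaling, robust moderation, a replicate block and leaving out each library. Intervals are 95% confidence intervals.

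The genes of the complex and the pathway lists were chosen with earlier results of these data known. Named genes were the 9 complex genes, ITGB4, EZR, all paralogues, up to 4 genes per other list by limma p, 8 fixed genes, and the 3 genes most correlated with CTNNB1. TCF7 and LEF1 were added as a scale for the level of TCF7L2. CTNNB1 overlaps ULK4 on the opposite strand but shares 0 exonic bases with it. On the same strand, APC overlaps the protein-coding gene AC008575.1 over 19027 bases, and GSK3A overlaps AC006486.1, also protein-coding, over 8043 bases. Both of these genes had a mean of 0 FPKM. Exonic bases shared with them, and how reads there were assigned, were not examined.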

Additional observations from a re-analysis of the deposited data

How the results depend on the processing

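Of 124 refits of the 9 complex genes over 14 alternatives, 116 kept direction and side of the threshold and 8 turned sign, all of them when 1 library was left out. No complex gene passed in any of them (lowest limma adjusted p 0.465). Leaving out 1 library moved CTNNB1 from -0.039 to 0.015, APC from -0.027 to 0.12, AMER1 from -0.081 to 0.0027, GSK3A from -0.088 to 0.031 and CSNK1A1 from -0.031 to 0.013, and among other genes CDH1 from -0.032 to 0.036, CSNK1D from -0.073 to 0.029, CSNK1G2 from -0.082 to 0.12 and SKP1 from -0.072 to 0.042. The last 2 also turned sign as TPM (0.0027 and 0.00040) and by limma-voom (0.0031 and 0.0032). The cause was not tested.

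The count of genes called over all genes tested, 6, became 26 by limma-voom, 0 of 31956 with no filter on low values (1356 at an unadjusted p under 0.05; more genes are adjusted over), and 0 to 7 without 1 library (3 when the third control was dropped, and 0 when any ITGB4 siRNA library was, with 604, 545 and 581 at an unadjusted p under 0.05 for replicates 1, 2 and 3). With the replicate block it was 0 (1064 at an unadjusted p under 0.05), and no complex gene passed there either. Same-numbered libraries had correlations of 0.173, 0.102 and -0.01 in their deviations from the group means. Differently numbered ones ran from -0.174 to 0.0862, below the values of replicates 1 and 2. The numbers are not shown to pair the libraries, and pairing was not tested. ITGB4 kept -0.81 but had an adjusted p of 0.0618 without the filter and 0.0564 with the block. The ligase list had 1 call by limma-voom. With principal transcript lengths, chosen after seeing the data, the AXIN1 share differed by 0.916 percentage points in place of 0.596, as AXIN1's length falls more than AXIN2's. Depth limits BTRC and AMER1.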
